A study of Mus musculus with 2 samples.

Results

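The Ifitm genes encode the interferon-induced transmembrane proteins, and 4 of the 32285 genes counted in these mouse bone marrow libraries are described here: Ifitm1, Ifitm2, Ifitm3 and Ifitm6. The members were taken by gene symbol. They were chosen by measured values of these data, namely the higher Ifitm1 level in progenitors of the knockout library, so every difference between the libraries given here is a description and no test was made on it. Each of the 4 symbols occurs once in both count tables, and all 4 were detected in both libraries.

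The study asked what the kinase MAP4K4 does in neutrophil development, and its single-cell data hold 2 libraries, 1 per condition. The library labelled control (Ctrl) and the library labelled Map4k4-cko (cKO) came from mice of 13 to 14 weeks. In each, c-Kit+ stem and progenitor cells pulled down with magnetic beads were put back into red-cell-lysed marrow of the same genotype at 2 parts to 3. How many animals went into a library is not given in the sources used here. By the methods, cKO mice were Mx1-Cre Map4k4 f/f and controls were Mx1-Cre littermates, whose genotype is written there as Mx1-Cre Map4k4-/-, on a C57BL/6 background. Mx1-Cre is driven by an interferon-inducible promoter, and the floxed alleles were deleted by injecting poly I:C, a double-stranded RNA mimic that induces interferon, weeks before the marrow was taken. The methods state the injections for the f/f mice and do not state them for the controls, so for interferon-responsive genes such as these, genotype and poly I:C cannot be told apart.

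After filters on genes and mitochondrial reads, 9965 Ctrl and 6718 cKO cells were kept, with a median of 4111 and 6244 unique molecular identifiers (UMIs, each 1 counted RNA molecule) per cell. All barcodes together held 71527701 UMIs in Ctrl and 64393950 in cKO. Of the kept cells, 17.6% matched no cell class. The libraries shared 3010 cell barcodes, which is 29.5% of those of Ctrl and 43.8% of those of cKO. Profiles under a shared barcode were no more alike across the libraries (median r = 0.498) than those under 2 different shared barcodes (median r = 0.498). Map4k4 itself, the targeted kinase gene, was at 72.6 CPM in Ctrl and 64.3 CPM in cKO, a log2 ratio of -0.17 (95% counting interval -0.23 to -0.12). A 3′ count does not see which exons were removed, so this level does not check the labels. With 1 library per condition no p-value is possible, and every interval given covers counting error only.

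IFITM proteins are small proteins of the plasma membrane and of endosomes that hinder the entry of enveloped viruses by acting on membrane fusion. IFITM3 works mostly in endosomes and lysosomes, IFITM1 is found more at the cell surface, and IFITM2 is a close relative of IFITM3. Interferons induce several of the genes, but stem cells also carry IFITM RNA without an interferon stimulus. Ifitm6 is a mouse member seen in marrow and myeloid cells, and its function is less known.

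The 4 genes lie side by side on mouse chromosome 7, within 63.1 kb (GRCm38, GENCODE M21 annotation). Ifitm2 is at chr7:140954837-140955987, minus strand. Ifitm1 is at chr7:140967221-140969825, plus strand, and is the only one of the 4 that reads in that direction. Ifitm3 is at chr7:141009586-141010770, minus strand. Ifitm6 is at chr7:141015699-141017924, minus strand. The counts come from transcript 3′ ends, and the close relatives share letters there. Of all 50-base words in the last 500 bases, 41.9% of those of Ifitm2, 14.0% of Ifitm3, 11.8% of Ifitm1 and none of Ifitm6 also occur in a transcript of another gene, pseudogenes included. Ifitm2 is also overlapped on its own strand by the annotated gene Gm45717. Ifitm2 is therefore the member whose count is least certain, and Ifitm6 shares no such word.

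The promoters differ in the core letters of the interferon-stimulated response element, which interferon-activated transcription factors bind. The letters searched were GAAA, any 2 bases, and GAAA again. In the RefSeq promoters (build GRCm38.p6, from 250 bases before to 50 after each start), searched on both strands, 3.99% of 27025 genes held the letters. The Ifitm3 promoter held 2 matches, the Ifitm2 promoter 1, and the Ifitm1 and Ifitm6 promoters none. Only 1 start per gene was searched. For Ifitm1 (chr7:140967826-140968125) and Ifitm6 (chr7:141016843-141017142) the searched stretch lay wholly inside the GENCODE gene. The GENCODE 5′ ends of these genes, at 140967221 and 141017924, were therefore not searched. Of the interferon-stimulated genes listed for comparison, 25 of the 48 that had a promoter in the table held a match. The 150 bases from 120 before to 30 after each start are printed 5′ to 3′ on the strand of the gene, with matches in capitals. They are shown because the members differ in the number of matches. Whether the matches go with the differences between the libraries was not tested. The stretch of Ifitm1 is chr7:140967956-140968105, plus strand, that of Ifitm2 chr7:140955932-140956081, minus strand, that of Ifitm3 chr7:141010715-141010864, minus strand and that of Ifitm6 chr7:141016863-141017012, minus strand.
Ifitm1: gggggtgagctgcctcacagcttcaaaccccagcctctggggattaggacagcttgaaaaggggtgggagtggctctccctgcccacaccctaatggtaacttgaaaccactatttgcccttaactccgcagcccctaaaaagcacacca
Ifitm2: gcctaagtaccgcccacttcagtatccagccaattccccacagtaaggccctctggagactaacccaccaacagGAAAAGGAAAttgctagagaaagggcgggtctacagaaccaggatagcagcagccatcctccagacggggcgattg
Ifitm3: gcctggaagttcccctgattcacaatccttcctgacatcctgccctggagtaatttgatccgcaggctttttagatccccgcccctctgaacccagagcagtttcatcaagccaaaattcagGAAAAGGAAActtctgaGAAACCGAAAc
Ifitm6: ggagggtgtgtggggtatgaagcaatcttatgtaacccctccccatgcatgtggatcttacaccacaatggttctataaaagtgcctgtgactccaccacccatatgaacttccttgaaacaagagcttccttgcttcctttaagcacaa
The Ifitm2 match starts 46 bases before the start. The 2 Ifitm3 matches begin at positions 3 and 20, with the start base counted as position 1. A match is a run of letters and not a measured binding site.

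All 4 members had more RNA in the cKO library as a whole, in CPM, the UMIs of a gene scaled to a common total of all UMIs. Ifitm1 was at 109 CPM in Ctrl and 600.4 CPM in cKO, a log2 ratio of 2.46 (95% counting interval 2.43 to 2.50). Ifitm2 was at 409 CPM in Ctrl and 1035 CPM in cKO, a log2 ratio of 1.34 (95% counting interval 1.32 to 1.36). Ifitm3 was at 437 CPM in Ctrl and 837 CPM in cKO, a log2 ratio of 0.94 (95% counting interval 0.92 to 0.96). The order of the ratios puts Ifitm1 first and Ifitm3 last, with Ifitm6 between them. Ifitm6 was at 727 CPM in Ctrl and 2347 CPM in cKO, a log2 ratio of 1.69 (95% counting interval 1.68 to 1.70). The libraries also differed in make-up, with 5.41% of all UMIs of Ctrl and 13.0% of those of cKO in cells with mature neutrophil markers. With the cKO levels of each class weighted to the class make-up of Ctrl, the log2 ratios were 1.97 for Ifitm1, 1.01 for Ifitm2, 0.69 for Ifitm3 and 1.14 for Ifitm6.

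Cells were assigned to classes by markers of stem cells, progenitors, the neutrophil path and other marrow lineages, with no Ifitm gene among them, and each class is called by its markers with the ending "-like". In 18 classes both libraries held at least 20 cells. The neutrophil path runs from stem cells (HSC-like) through multipotent progenitors (MPP-like), granulocyte-monocyte progenitors (GMP-like), promyelocytes that make primary granules (ProNeu-like), dividing precursors with secondary granules (PreNeu-like) and immature neutrophils (imNeu-like) to mature neutrophils (mNeu-like).

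**Figure D1:**
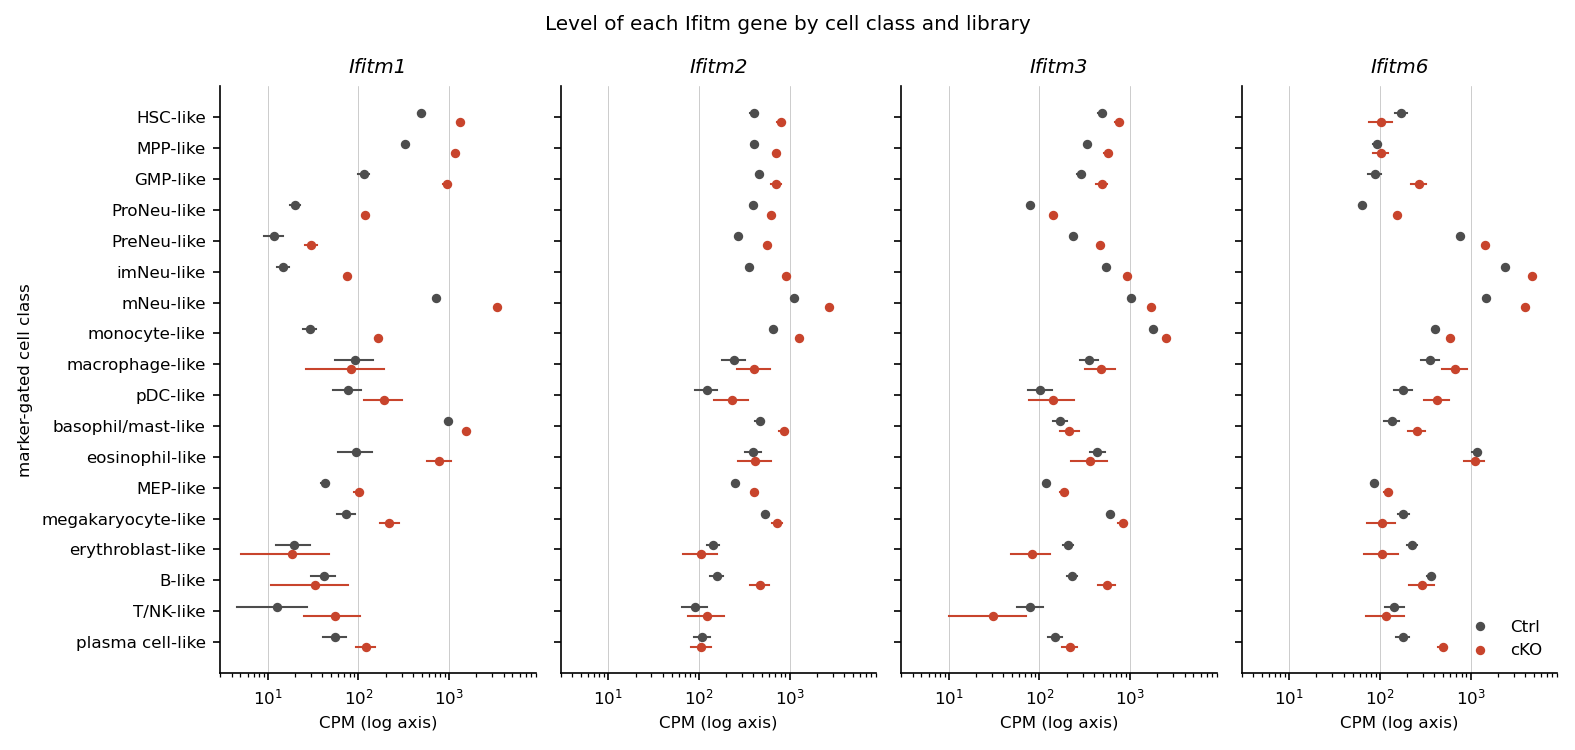
Level of Ifitm1, Ifitm2, Ifitm3 and Ifitm6 in CPM (log axis) in each of the 18 cell classes, with Ctrl in grey and cKO in red; points are the summed UMIs of a class as CPM and bars the exact 95% Poisson interval of the count. Ifitm1 is high at both ends of the neutrophil path and low in between, Ifitm3 is highest in monocyte-like cells and Ifitm6 in imNeu-like cells.

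Ifitm1 was high in stem cells and again in mature neutrophils, and low in the stages that link them. In HSC-like cells it was at 495 CPM in Ctrl and 1331 in cKO. In MPP-like cells it was at 329 CPM in Ctrl and 1166 in cKO. In GMP-like cells it was at 115 CPM in Ctrl and 941 in cKO. From the HSC-like to the GMP-like stage the level was thus lower at each step in both libraries. ProNeu-like, PreNeu-like and imNeu-like cells held 20.1, 11.6 and 14.7 CPM in Ctrl and 119, 30.1 and 74.8 CPM in cKO. In mNeu-like cells it was at 713 CPM in Ctrl and 3403 in cKO, the highest cKO level of any class. Basophil/mast-like cells held 965 CPM in Ctrl and 1552 in cKO, the highest Ctrl level. These 3 sets of classes, stem and multipotent cells, basophils and mast cells, and mature neutrophils, made up the first 4 places of the order in both libraries.

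The other classes held less Ifitm1. Eosinophil-like cells were at 93.8 CPM in Ctrl and 782 in cKO, from 23 and 45 UMIs. Megakaryocyte-like cells were at 73.4 CPM in Ctrl and 220.2 in cKO, and pDC-like cells (plasmacytoid dendritic cells) at 77.0 CPM in Ctrl and 193 in cKO. Monocyte-like cells, which share the GMP origin with neutrophils, had little Ifitm1 in both libraries. They were at 29.0 CPM in Ctrl and 164 in cKO. MEP-like cells (megakaryocyte-erythroid progenitors) were at 42.9 CPM in Ctrl and 101 in cKO, though a Leiden cluster that took the same name held 329.6 and 686 CPM, and plasma cell-like cells at 54.7 CPM in Ctrl and 121 in cKO. The levels in macrophage-like, B-like, T/NK-like and erythroblast-like cells were low. They were 92.7, 41.5, 12.6 and 19.7 CPM in Ctrl, and 82.0, 33.2, 55.5 and 18.4 CPM in cKO. When the classes were ordered by their mean level, the range spanned by both libraries overlapped between all 17 neighbouring pairs. That range takes in the difference between the libraries itself, so the overlap does not decide the order of neighbours. HSC-like, MPP-like, GMP-like and eosinophil-like cells held places 3, 4, 5 and 6 in each library. For Ifitm2 all 17 pairs overlapped too, and for Ifitm3 and Ifitm6 14 of 17 did.

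Ifitm2 was present across the classes and highest in mature neutrophils. It was at 1119 CPM in Ctrl and 2738 in cKO in mNeu-like cells and at 654 CPM in Ctrl and 1271 in cKO in monocyte-like cells. Along the path before maturity it changed little within Ctrl, with 409, 409, 461, 394, 271 and 359 CPM from HSC-like to imNeu-like cells. In cKO the same stages held 809, 712, 711, 621, 567 and 909 CPM. Every stage of the path was therefore higher in cKO. Basophil/mast-like cells were at 468 CPM in Ctrl and 863 in cKO, megakaryocyte-like cells at 534 CPM in Ctrl and 731 in cKO, and eosinophil-like cells at 396 CPM in Ctrl and 417 in cKO. MEP-like cells were at 251 CPM in Ctrl and 408 in cKO, macrophage-like cells at 244 CPM in Ctrl and 409.9 in cKO, and pDC-like cells at 121 CPM in Ctrl and 234 in cKO. The remaining classes were lymphoid or haemoglobin-making. B-like, plasma cell-like, T/NK-like and erythroblast-like cells held 157, 109, 90.2 and 144 CPM in Ctrl and 471, 106, 123 and 106 in cKO.

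Ifitm3 led in monocytes. Monocyte-like cells were at 1804 CPM in Ctrl and 2489 in cKO, and mNeu-like cells at 1031 CPM in Ctrl and 1724 in cKO. These were the first and the second class in both libraries, and the ranges of the first 3 classes in the order did not overlap. ImNeu-like cells, next in the order, were at 542 CPM in Ctrl and 931 in cKO. At the stem end Ifitm3 was also present, at 489 CPM in Ctrl and 757 in cKO in HSC-like cells, at 337 CPM in Ctrl and 566 in cKO in MPP-like cells and at 285 CPM in Ctrl and 489 in cKO in GMP-like cells. It was lower at the promyelocyte stage, with 79.5 CPM in Ctrl and 141 in cKO in ProNeu-like cells, and at 235 CPM in Ctrl and 471 in cKO in PreNeu-like cells. In both libraries the ProNeu-like level of Ifitm3 was the lowest of the path, whereas Ifitm1 was lowest one stage later, in PreNeu-like cells. Megakaryocyte-like cells were at 598 CPM in Ctrl and 827 in cKO, eosinophil-like cells at 437 CPM in Ctrl and 365 in cKO, and macrophage-like cells at 356 CPM in Ctrl and 475 in cKO. Basophil/mast-like cells, rich in Ifitm1, held only 169 CPM in Ctrl and 215 in cKO. The 6 remaining classes, MEP-like, pDC-like, plasma cell-like, erythroblast-like, B-like and T/NK-like, lay between 79.7 (T/NK-like) and 227 CPM (B-like) in Ctrl and between 30.8 (T/NK-like) and 551 CPM (B-like) in cKO.

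Ifitm6 belonged to the secondary granule stages of the neutrophil path. It was at 764 CPM in Ctrl and 1464 in cKO in PreNeu-like cells, at 2409.9 CPM in Ctrl and 4766 in cKO in imNeu-like cells and at 1493 CPM in Ctrl and 4030.3 in cKO in mNeu-like cells. One stage earlier, in ProNeu-like cells, it was at 63.3 CPM in Ctrl and 155 in cKO. From ProNeu-like to imNeu-like cells the level was higher at each step in both libraries. Eosinophil-like cells were at 1167 CPM in Ctrl and 1112 in cKO, monocyte-like cells at 402 CPM in Ctrl and 595 in cKO, and macrophage-like cells at 361 CPM in Ctrl and 672 in cKO. The 9 imNeu markers summed to 40033 CPM in Ctrl and 23455 in cKO in the eosinophil-like cells. They summed to 6464 and 5379 CPM in the monocyte-like and 20417.5 and 47975 CPM in the macrophage-like cells. The part of neutrophil RNA in these Ifitm6 levels was not tested. HSC-like cells were at 172 CPM in Ctrl and 103 in cKO, MPP-like cells at 93.2 CPM in Ctrl and 102 in cKO, and GMP-like cells at 88.0 CPM in Ctrl and 271 in cKO. In these stem and progenitor classes, and in ProNeu-like cells, the level was no higher in either library than the 367 and 292 CPM of B-like cells. T/NK-like cells held 145 and 117 CPM, below the HSC-like level in Ctrl and below the GMP-like and ProNeu-like levels in cKO. The 8 remaining classes ran from 86.9 (MEP-like) to 367 CPM (B-like) in Ctrl and from 105 (megakaryocyte-like) to 493 CPM (plasma cell-like) in cKO.

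Most UMIs of a member lay in few classes. Of all Ifitm1 UMIs, 35.4% in Ctrl and 73.8% in cKO lay in mNeu-like cells, which held 5.41% and 13.0% of all UMIs. HSC-like and MPP-like cells held 6.50% and 14.2% of the Ifitm1 UMIs of Ctrl, and 1.61% and 3.06% of those of cKO. Of the Ifitm3 UMIs, monocyte-like, imNeu-like and mNeu-like cells held 31.7%, 21.6% and 12.8% in Ctrl and 19.6%, 31.8% and 26.8% in cKO. ImNeu-like cells held 57.8% and 58.1% of the Ifitm6 UMIs. Of the Ifitm2 UMIs, ProNeu-like, imNeu-like and mNeu-like cells held 18.2%, 15.3% and 14.8% in Ctrl and 14.2%, 25.1% and 34.4% in cKO.

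UMIs per cell were compared after each cell was thinned to 1000 UMIs, since the classes differ in depth. ProNeu-like cells had a median of 16353 UMIs in Ctrl and 3366 in cKO, GMP-like cells 7166 and 1068, and mNeu-like cells 2243 and 6082. An Ifitm1 UMI was found in 34.7% (95% interval 26.2 to 44.1%, 118 cells) of thinned HSC-like cells of Ctrl and in 63.6% (95% interval 47.8 to 77.6%, 44 cells) of those of cKO. In MPP-like cells the shares were 25.4% (95% interval 20.5 to 30.8%, 291 cells) and 64.3% (95% interval 51.9 to 75.4%, 70 cells). In both classes the cKO share was the higher. The GMP-like shares were 10.1% (95% interval 5.74 to 16.1%, 149 cells) and 44.1% (95% interval 27.2 to 62.1%, 34 cells), and the mNeu-like shares 34.2% (95% interval 31.7 to 36.7%, 1405 cells) and 64.1% (95% interval 61.4 to 66.8%, 1271 cells). Before thinning, the HSC-like, MPP-like, GMP-like and mNeu-like shares were 80%, 72.8%, 40.7% and 48.1% in Ctrl and 85.7%, 92.1%, 59.4% and 85.5% in cKO. B-like cells, with median depths of 2102 and 2752 UMIs, were taken as a guide to free RNA: 3.31% (95% interval 1.72 to 5.72%, 362 cells) in Ctrl and 0% (95% interval 0 to 13.7%, 25 cells) in cKO. The upper bound in cKO is set by the small number of cells. B-like cells also differ from T/NK-like cells in neutrophil RNA, so they are an uncertain guide. The 9 imNeu markers summed to 14332 and 35059 CPM in B-like cells and to 8703 and 2602 CPM in T/NK-like cells.

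More cells of cKO also carried several Ifitm1 molecules. At 1000 UMIs, 1.03% of MPP-like cells of Ctrl and 24.3% of those of cKO had 3 or more, and in HSC-like cells 2.54% and 22.7% had. In mNeu-like cells 11.7% of Ctrl and 44.1% of cKO cells did, with a median of 0 and 2 UMIs and a highest value of 14 and 28. Mature neutrophils were still uneven, since 35.9% of the thinned mNeu-like cells of cKO had none. In Ctrl, the thinned shares of ProNeu-like (2.00%), PreNeu-like (0.792%), imNeu-like (1.98%) and monocyte-like cells (3.06%) were at or below that of B-like cells and are read as background. In cKO they were 14.2%, 8.52%, 6.40% and 9.90%, of which only the ProNeu-like share exceeded the upper bound of the B-like cells. T/NK-like cells, another class that should hold little Ifitm1, gave 1.52% (95% interval 0.184 to 5.37%, 132 cells) in Ctrl and 7.69% (95% interval 0.946 to 25.1%, 26 cells) in cKO, a range that takes in all 4 of these cKO shares.

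**Figure D2:**
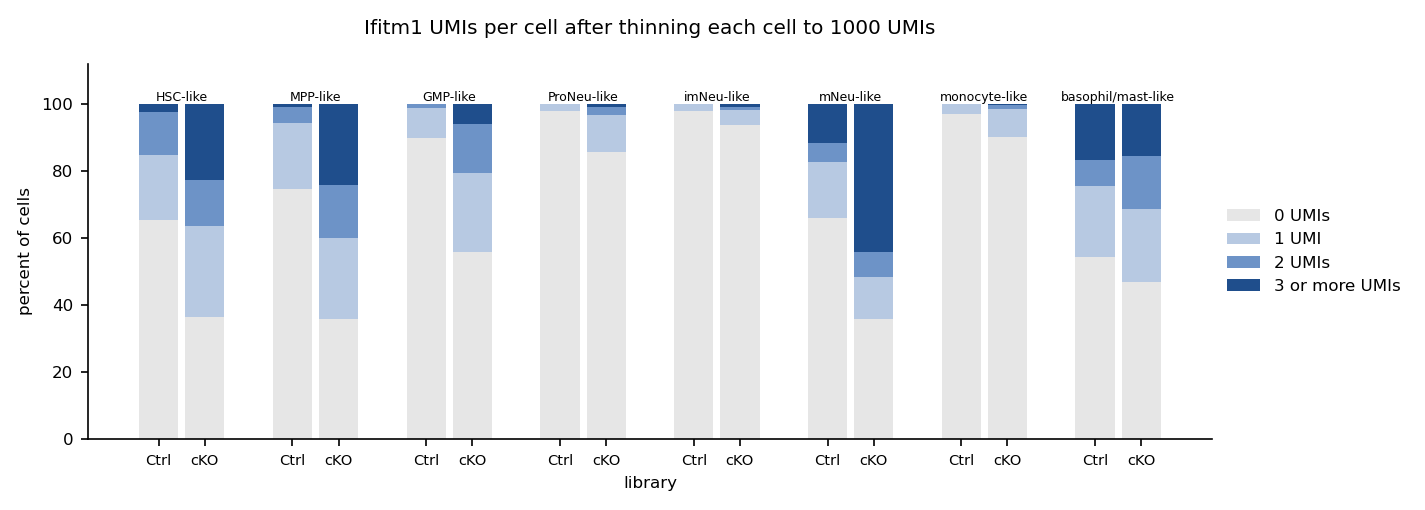
Share of cells (percent, vertical axis) with 0, 1, 2 or 3 or more Ifitm1 UMIs after each cell was thinned to 1000 UMIs, for Ctrl and cKO in 8 cell classes. The share with 3 or more is 1.03% and 24.3% in MPP-like and 11.7% and 44.1% in mNeu-like cells.

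The other members were found in more of the thinned mNeu-like cells than Ifitm1. An Ifitm2 UMI was found in 60.1% of Ctrl and 86.9% of cKO cells, an Ifitm3 UMI in 56.8% and 74.4%, and an Ifitm6 UMI in 60.6% and 83.0%. In monocyte-like cells the Ifitm3 shares were 77.2% and 82.8%, and in imNeu-like cells the Ifitm6 shares were 84.1% and 94.3%. In mNeu-like cells Ifitm1 and Ifitm6 were found together in 17.0% of Ctrl cells where the product of the single shares is 20.7%, and in 49.6% of cKO cells against 53.2%. Of the 6 pairs this one lay furthest below its product in both libraries. Ifitm1 and Ifitm2 were together in 23.5% and 57.6% against products of 20.5% and 55.7%, the furthest above it in both.

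Where in maturation the members come up was followed in 7853 cells of the late neutrophil path, ordered by their mature minus immature marker score and cut into 10 bins of equal cell number. Ifitm1 was at 7.39 CPM in Ctrl and 14.4 in cKO in the first bin, at 34.7 and 153 in bin 5, and at 1583 and 6943 in the last. In both libraries each bin from bin 4 on was higher than the one before it. Ifitm2 was nearly level over bins 1 to 5 of Ctrl (316 to 344 CPM) and at 1728 CPM in the last. In cKO Ifitm2 was higher in every bin than in the one before, from 600.5 to 3846 CPM. Ifitm3 levelled off after bin 7 in Ctrl, with 979 CPM there and 1024 in the last bin. In cKO it went on from 1484 to 1860.5 CPM. Ifitm6 peaked midway and was lower again in the most mature cells. It was at 1569 and 2461 CPM in the first bin, 3185 and 6269 in bin 6, and 607 and 1746 in the last.

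**Figure D3:**
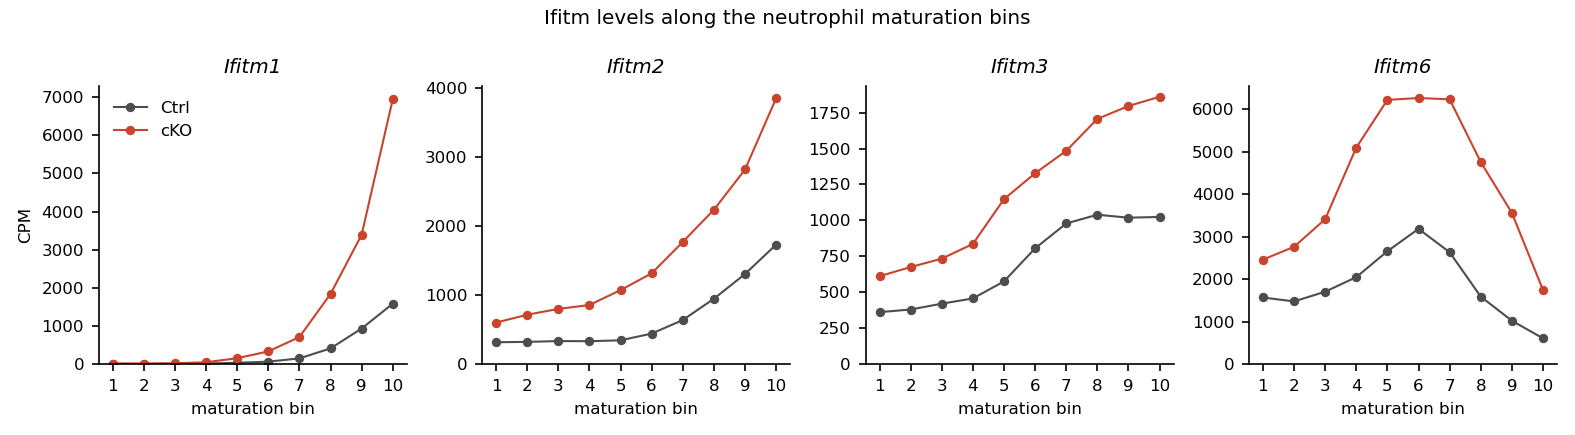
Level of the 4 genes in CPM (vertical axis, linear, from 0) in 10 bins of cells ordered from immature to mature by marker score, with Ctrl in grey and cKO in red. Ifitm1, Ifitm2 and Ifitm3 go up towards the mature end and Ifitm6 peaks in bin 6, at 3185 CPM in Ctrl and 6269 in cKO.

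All 4 members were higher in cKO in every bin, so the difference in the neutrophil path was also seen among cells of like marker score. The log2 ratio of Ifitm1 was 0.96 (0.34 to 1.60) in the first bin, 2.39 (2.08 to 2.72) in bin 6 and 2.13 (2.05 to 2.22) in the last. For Ifitm2 it was lowest in the first bin, at 0.93 (0.83 to 1.02), and highest in bin 5, at 1.64 (1.52 to 1.76). For Ifitm3 it stayed between 0.60 in bin 7 and 1.0 in bin 5. For Ifitm6 it ran from 0.65 (0.61 to 0.69) in the first bin to 1.80 (1.71 to 1.90) in bin 9. The late markers did not all move with it. In the last bin Il1b, the interleukin-1 beta gene, was at 1127 CPM in Ctrl and 1053 in cKO, Cxcr2, the chemokine receptor of mature neutrophils, at 1789 and 1738, and Retnlg, a mature neutrophil marker, at 22875 and 35119.5. Mmp8, another mature marker, was at 1221 CPM in Ctrl and 2293 in cKO. The immature markers Camp and Ltf were at 1836 and 572 CPM in Ctrl and at 971 and 242 in cKO. Within the bin the libraries were thus not alike in all markers. Median depth in that bin was 1984 UMIs in Ctrl and 5501 in cKO.

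In the stem and progenitor classes the libraries were compared class by class. A gene counted as past the fold where its CPM differed at least 2-fold and its mean over the libraries was at least 50 CPM. In HSC-like cells (120 Ctrl and 49 cKO cells), 1 of 4 members, Ifitm1, was past the fold upward, beside 1.06% of 3316 genes. Its log2 ratio was 1.43 (95% counting interval 1.25 to 1.60), where the median of all genes was -0.07. Ifitm2 was at 0.98 (95% counting interval 0.78 to 1.19) and Ifitm3 at 0.63 (95% counting interval 0.43 to 0.83). One cell of cKO gave 44 of the 378 Ifitm2 UMIs. At 1000 UMIs per cell, Ifitm2 was found in 33.1% of HSC-like cells of Ctrl and 29.5% of those of cKO. The mean there was 0.43 UMIs per cell in each library. Thinned to 2000 UMIs, the shares were 53.5% and 66.7%. Ifitm6 alone was lower in cKO, at -0.74 (95% counting interval -1.23 to -0.27). Of its 175 UMIs in Ctrl, 61 came from 1 cell, and without the top cell of each library its log2 ratio was -0.22.

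In MPP-like cells (309 and 76 cells), Ifitm1 had the highest log2 ratio of all 3120 genes compared, 1.83 (95% counting interval 1.71 to 1.95). It was the only member of 4 past the fold, beside 0.224% of genes upward. Ifitm2 was at 0.80 (95% counting interval 0.67 to 0.93) and Ifitm3 at 0.75 (95% counting interval 0.60 to 0.89), while the interval of Ifitm6 held 0, at 0.13 (95% counting interval -0.21 to 0.45). In GMP-like cells (172 and 64 cells) Ifitm1 and Ifitm6 were past the fold, 2 of 4 members beside 0.710% of 2959 genes upward and 1.93% downward. Ifitm1 stood at 3.03 (95% counting interval 2.78 to 3.28), second of all genes compared, and Ifitm6 at 1.62 (95% counting interval 1.26 to 1.98). Those Ifitm6 levels were no higher than in B-like cells, though in cKO above that of T/NK-like cells. One cell of cKO gave 99 of the 389 Ifitm1 UMIs, and without the top cell of each library the log2 ratio was 2.82. In Leiden clusters named from the same markers the GMP-like value was 2.41 for Ifitm1 and 0.18 for Ifitm6, which was then no longer past the fold, and 149 of the 236 GMP-like cells lay close to the margin of the gate.

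Neutrophil markers were looked at in the same progenitor classes, since neutrophil RNA could reach them. The 11 mNeu markers summed to 622 CPM in Ctrl and 1288 in cKO in HSC-like cells, 694 CPM in Ctrl and 639.9 in cKO in MPP-like cells and 799.6 CPM in Ctrl and 1575 in cKO in GMP-like cells, and the 9 imNeu markers to 8630.5 CPM in Ctrl and 2754 in cKO, 5752 CPM in Ctrl and 2374 in cKO and 2927 CPM in Ctrl and 6171 in cKO. None of the 20 markers was at 0 in either library. In MPP-like cells, where Ifitm1 stood highest among all genes, both sums were thus lower in cKO, the mNeu sum only slightly. In HSC-like cells the mNeu sum was about 2-fold higher in cKO, while the imNeu sum was lower. In GMP-like cells both were about 2-fold higher in cKO. The part of neutrophil RNA in the differences of these classes was not tested. The 6 basophil and mast cell markers, of a lineage also rich in Ifitm1, summed to 61.8 CPM in Ctrl and 74.9 in cKO in HSC-like and 96.5 CPM in Ctrl and 128 in cKO in MPP-like cells, with 1 of 6 at 0 in Ctrl and 2 of 6 in cKO. In ungated cells, which matched no class, Ifitm1 was at 135 CPM in Ctrl and 495 in cKO.

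Along the neutrophil path the members differed in which stage showed the larger difference. In ProNeu-like cells Ifitm1 and Ifitm6 were past the fold, 2 of 4 members beside 0.190% of 2636 genes upward and 0.531% downward. Ifitm1 was at 2.57 (95% counting interval 2.38 to 2.76), first of all genes compared, and Ifitm6, at levels no higher than in B-like cells, at 1.29 (95% counting interval 1.17 to 1.40). In cKO that Ifitm6 level was above the 117 CPM of T/NK-like cells. The 119 CPM of Ifitm1 in cKO is above the upper bound of 77.4 CPM in B-like cells. The Ctrl level under that ratio, 20.1 CPM, is in the range read as background above. The 11 mNeu markers summed to 669 CPM in Ctrl and 982 in cKO in ProNeu-like cells. The 9 imNeu markers summed to 10123 and 12570 CPM there. The part of neutrophil RNA in these values was not tested. The ProNeu-like cells of cKO were shallower, and with a floor of 2000 UMIs per cell the log2 ratio was 2.46 for Ifitm1 and 0.75 for Ifitm6. Leiden clusters gave 0.78 for Ifitm6, so its call held under neither. In PreNeu-like cells Ifitm2 and Ifitm3 were past the fold, 2 of the 3 members with enough RNA beside 0.246% of 2035 genes. Ifitm2 was at 1.06 (95% counting interval 0.97 to 1.15), Ifitm3 at 1.01 (95% counting interval 0.91 to 1.10) and Ifitm6, just short of the fold, at 0.94 (95% counting interval 0.89 to 0.99). Under the stricter gate Ifitm3 was just short of it too, at 0.96. In imNeu-like cells Ifitm2 was past the fold, 1 of 3 members beside 0.269% of 1861 genes. It was at 1.34 (95% counting interval 1.29 to 1.39), while Ifitm3 was at 0.78 (95% counting interval 0.74 to 0.82) and Ifitm6 at 0.98 (95% counting interval 0.96 to 1.0). Ifitm1 had under 50 CPM on average in both classes, with log2 ratios of 1.37 and 2.35.

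In mNeu-like cells (1516 Ctrl and 1311 cKO cells) 3 of 4 members were past the fold upward, beside 0.909% of 2091 genes. Ifitm1 was at 2.25 (95% counting interval 2.20 to 2.31), behind only 2 other genes, Ifitm6 at 1.43 (95% counting interval 1.39 to 1.47) and Ifitm2 at 1.29 (95% counting interval 1.24 to 1.34). Ifitm3 was at 0.74 (95% counting interval 0.69 to 0.79). The median of all genes was -0.30 in this class, so relative to it Ifitm1 stood at 2.56 and Ifitm3 at 1.05. Of the 3 Leiden clusters named mNeu-like, made without the Ifitm genes, cluster 2 held 850 Ctrl and 572 cKO cells, cluster 6 held 1005 Ctrl and 123 cKO cells, and cluster 8 held 104 and 795. Within cluster 2 Ifitm1 was at 154 and 692 CPM, a log2 ratio of 2.17. Within cluster 6 it was at 953 and 2761 CPM, and within cluster 8 at 1533 and 4943 CPM, log2 ratios of 1.54 and 1.69. Over the 24 clusters in which both libraries held at least 20 cells, the interval of Ifitm1 lay above 0 in 18 and below 0 in none, though a cluster mostly of 1 library may be that library rather than a cell type.

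**Figure D4:**
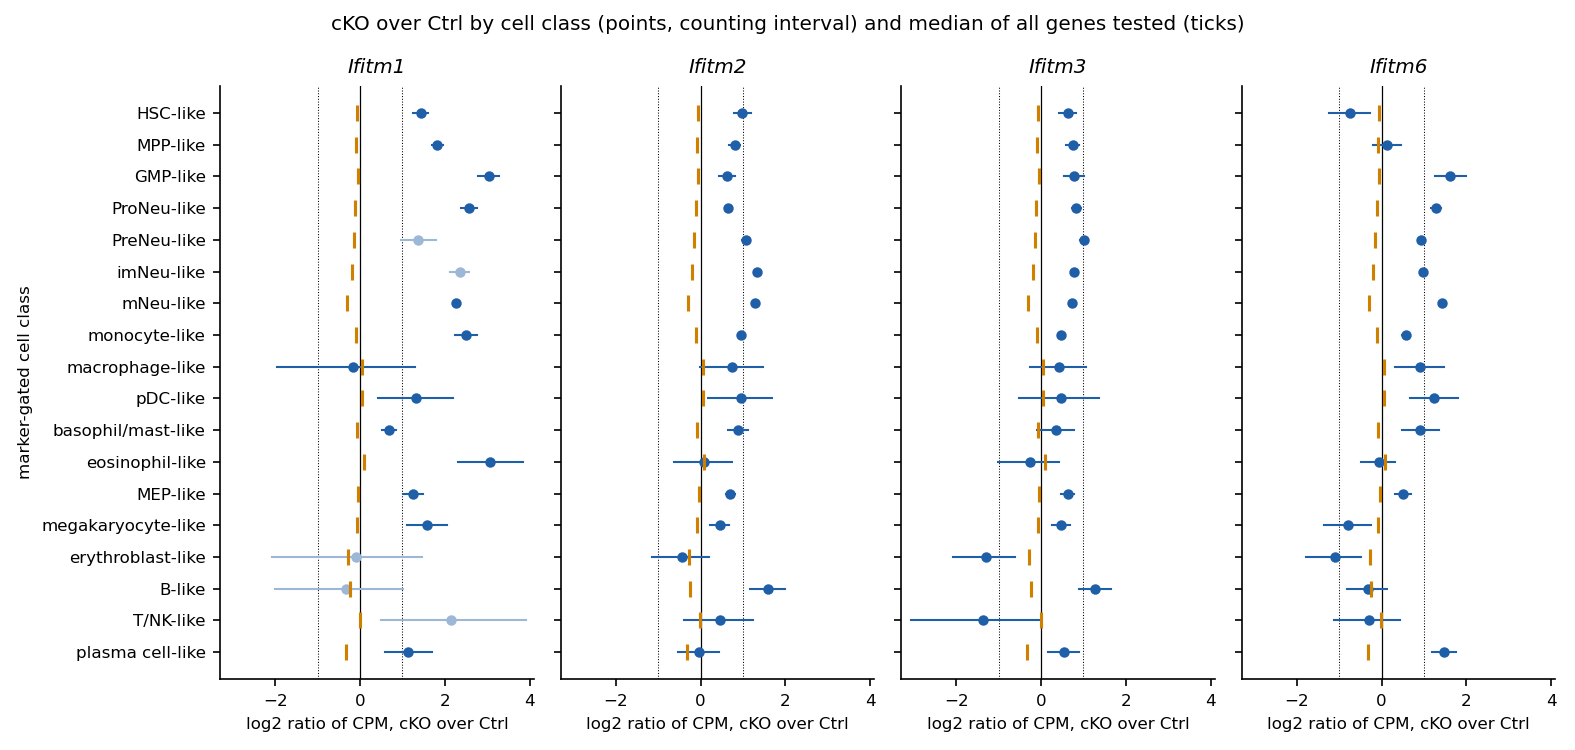
Log2 ratio of CPM, cKO over Ctrl, of each member in the 18 cell classes (points, with exact 95% counting intervals as bars), beside the median of all genes compared in the class (orange ticks); dotted lines mark the 2-fold limits and pale points are below 50 CPM on average. Ifitm1 is above 0 in all classes of the neutrophil path, from 1.37 in PreNeu-like to 3.03 in GMP-like cells, while erythroblast-like cells show no member above 0.

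Outside the neutrophil path Ifitm1 was the member most often past the fold. In monocyte-like cells Ifitm1 was the 1 member past the fold, beside 0.317% of 3159 genes. It was at 2.50 (95% counting interval 2.25 to 2.76), first of all genes compared, from the low levels given (159 and 697 UMIs). Its thinned share in Ctrl was read as background. The cKO share, 9.90%, was below the B-like upper bound of 13.7%. The 11 mNeu markers summed to 1401 CPM in Ctrl and 1927 in cKO in these cells, and the 9 imNeu markers to 6464 and 5379. The part of neutrophil RNA in this Ifitm1 value was not tested. Ifitm2 was at 0.96 (95% counting interval 0.90 to 1.02), and Ifitm3, at its highest level there, at 0.46 (95% counting interval 0.43 to 0.50). In MEP-like cells Ifitm1 alone was past the fold, beside 0.194% of genes upward and 0.713% downward, at 1.24 (95% counting interval 1.01 to 1.48), and in Leiden clusters at 0.99. It was again alone in megakaryocyte-like cells, beside 1.2% of genes upward and 4.27% downward, at 1.59 (95% counting interval 1.11 to 2.06). In basophil/mast-like cells, the class with the most Ifitm1 in Ctrl, no member was past the fold, beside 0.957% of genes upward and 2.55% downward, and Ifitm1 was at 0.69 (95% counting interval 0.52 to 0.85). One cell of cKO held 125 of its 491 UMIs there, and the mean of the per-cell proportions turned the sign, to -0.35. Macrophage-like cells had no member past the fold, beside 10.6% of genes upward.

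In the smaller classes a larger share of all genes was past the fold, and several calls did not hold under an alternative. Eosinophil-like cells had Ifitm1 past the fold, from 23 and 45 UMIs, beside 12.6% of genes. In pDC-like cells 2 of 4 members (Ifitm1 and Ifitm6) were past it, beside 5.71%, and neither held in Leiden clusters, at 0.92 and 0.13. In B-like cells 2 of 3 (Ifitm2 and Ifitm3) were past it beside 6.64%, and neither held under the stricter gate, at 0.77 and 0.50. The 9 imNeu markers summed to 14332 CPM in Ctrl and 35059 in cKO in these B-like cells, and their part was not tested. In plasma cell-like cells 2 of 4 (Ifitm1 and Ifitm6) were past it beside 2.80%, where Ifitm1 was at 0.91 under the stricter gate, 0.51 with the floor of 2000 UMIs and 0.46 in Leiden clusters. The imNeu marker sum was 8578 CPM in Ctrl and 13014 in cKO there. In the B-like cells of cKO 1 cell gave 38 of 83 Ifitm3 UMIs, and in the plasma cell-like cells of cKO 1 cell gave 118 of 278 Ifitm6 UMIs. Without the top cell of each library the first was at 0.66 and the second just short of the fold. Downward, erythroblast-like cells had 2 of 3 members past the fold beside 11.8% of genes, Ifitm3 at -1.31 (95% counting interval -2.09 to -0.62) and Ifitm6 at -1.10 (95% counting interval -1.79 to -0.49), and T/NK-like cells 1 of 3 beside 7% (5.76% upward), Ifitm3 at -1.37 (95% counting interval -3.07 to -0.02). In Leiden clusters the T/NK-like value was -0.32, and the mean of the per-cell proportions turned both erythroblast-like values above 0. Immature neutrophil RNA, which erythroblasts and lymphocytes should lack, was also lower in cKO in these classes. The 9 imNeu markers summed to 10096 CPM in Ctrl and 3625 in cKO in erythroblast-like cells and to 8703 CPM in Ctrl and 2602 in cKO in T/NK-like cells, and their part in these values was not tested.

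Over all 18 classes, the counting interval lay above 0 in 15 for Ifitm1, 13 for Ifitm2, 12 for Ifitm3 and 11 for Ifitm6. It lay below 0 in none for Ifitm1 and Ifitm2, in 2 for Ifitm3 and in 3 for Ifitm6. Of all genes compared, between 3.99% (erythroblast-like) and 31.2% (MEP-like) had an interval above 0, by class. Between 3.43% (macrophage-like) and 66.7% (mNeu-like) had one below 0. Of the classes with enough RNA for the fold, Ifitm1 was past it upward in 11 of 13, Ifitm2 in 4 of 18, Ifitm3 in 2 of 18 and Ifitm6 in 5 of 18. The share of all genes past it upward ran from 0.190% (ProNeu-like) to 12.6% (eosinophil-like). The member counts include the calls, given above, that did not hold under an alternative.

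No other interferon-stimulated gene with at least 50 CPM was past the fold upward in the neutrophil path. Of the 62 listed genes found in the tables, 21 had enough RNA in HSC-like, 16 in MPP-like, 12 in GMP-like, 23 in mNeu-like, and 6, 6 and 7 in the stages between the last pair. Downward, 1 was in mNeu-like cells, beside 3.44% of genes. Without the CPM limit, with at least 10 UMIs in its place, 5 of 58 genes of the list were past it upward in MPP-like and 3 of 46 in GMP-like cells, beside 2.58% and 3.26% of all genes. The mNeu-like gene was Ifi27l2a, an interferon-induced gene of unclear function, at 425 CPM in Ctrl and 149.8 in cKO. The median log2 ratio of the list was -0.16 in HSC-like, -0.05 in MPP-like, -0.11 in GMP-like and -0.45 in mNeu-like cells, beside -0.07, -0.09, -0.05 and -0.30 for all genes. In HSC-like cells the interval lay above 0 for 2 of 21, beside 12.4% of all genes, and below 0 for 5, beside 14.7%. In MPP-like cells it lay above 0 for 4 of 16, beside 19.97%, and below 0 for 4, beside 28.3%. In GMP-like cells it lay above 0 for 3 of 12, beside 10.7%, and below 0 for 1, beside 14.0%. In mNeu-like cells the interval lay below 0 for 21 of the 23, beside 66.7% of all genes compared, and above 0 for none, beside 13.3%. In monocyte-like cells it lay below 0 for 15 of 21, beside 42.1% of all genes, and above 0 for 2, beside 26.5%.

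**Figure D5:**
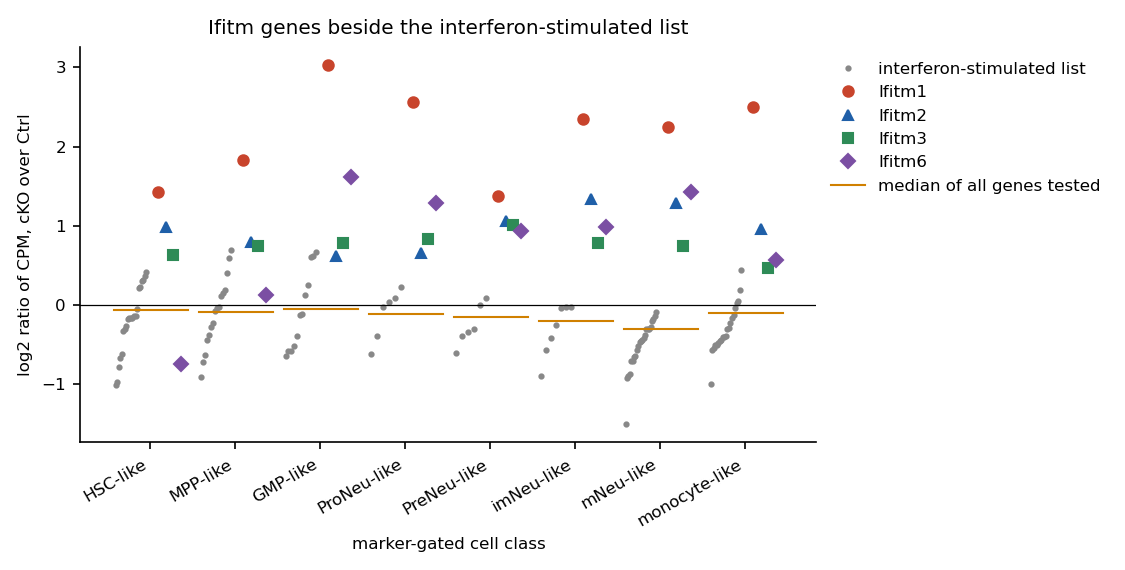
Log2 ratio of CPM, cKO over Ctrl (vertical axis), of the 4 Ifitm genes (coloured symbols) and of each gene of the interferon-stimulated list with enough RNA (grey points) in 8 cell classes, with the median of all genes compared as an orange line. In mNeu-like cells the 4 members lie between 0.74 and 2.25, above every gene of the list.

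The receptors and regulators of the interferon pathway were also not past the fold in the neutrophil path. Of 9 listed, 4 had enough RNA in MPP-like, 4 in GMP-like and 5 in mNeu-like cells, with none past the fold in either direction in these or in the other classes of the path. Their median log2 ratios were -0.48, -0.60 and -0.25. Elsewhere single regulators were past it, named after their values were seen. They were Irf1 and Ifngr1 upward and Irf8 and Jak1 downward in B-like cells, 2 and 2 of 7 beside 6.64% and 17% of genes. In pDC-like cells Ifngr1 was past it upward and Irf1 downward, 1 and 1 of 7 beside 5.71% and 6.44% of genes, each with an interval that held 0. Ifngr1 was so downward in T/NK-like, Irf8 in plasma cell-like and Ifngr2 in eosinophil-like cells, beside 7%, 13.7% and 11.9% of genes. The interval of the eosinophil-like Ifngr2 value held 0. Among the smaller classes, macrophage-like cells had 3 of 25 interferon-stimulated genes past the fold upward (Ifi27, Ifi47 and Iigp1), beside 10.6% of genes. Each of the 3 had an interval that held 0. Downward 1 of 25 was past it there (Rsad2), with an interval below 0, beside 11.2% of genes. In pDC-like cells 4 of 25 were past it downward (Ifi27l2a, Irf7, Stat2 and Slfn5), beside 6.44% of genes. Ly6a was past it upward in plasma cell-like cells (1 of 8 beside 2.80%), at 383 CPM in Ctrl and 938 in cKO. Its log2 ratio was 1.29 (counting interval 1.09 to 1.49). The 1 of 10 upward in eosinophil-like cells (Trim30a, beside 12.6%) had an interval that held 0. Downward, 3 of 7 were past it in erythroblast-like (11.8%), 3 of 20 in B-like (17%) and 3 of 24 in T/NK-like cells (7%). In plasma cell-like cells 1 of 8 was (13.7%).

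The rest of the family was low in the libraries as a whole, and few genes next to the cluster could be compared. Ifitm5, a gene of bone-forming cells, Ifitm7 and Ifitm10 were each under 5 CPM in both libraries. Ifitm5 was at 1.07 CPM in Ctrl and 1.14 CPM in cKO, Ifitm7 at 3.27 CPM in Ctrl and 1.63 CPM in cKO and Ifitm10 at 2.46 CPM in Ctrl and 3.46 CPM in cKO. Their highest level in a class was that of Ifitm10 in T/NK-like cells, 42.0 CPM in Ctrl and 30.8 in cKO. Within 150 kb of the cluster the annotation has 27 other genes, of which 21 are in the tables and few have enough RNA. In MPP-like cells 3 of them did, with log2 ratios from 0.13 to 0.67. In GMP-like cells 3 did, from 0.12 to 0.72, and in mNeu-like cells 2, from -0.39 to -0.26. None of these was past the fold. In the other classes Rnh1 was past it upward in basophil/mast-like cells (1 of 4 beside 0.957% of genes) and T/NK-like cells (1 of 3 beside 5.76%). Psmd13 was past it downward in macrophage-like cells (1 of 2 beside 11.2%). Both were named after their values were seen. Rnh1 lay between 0.42 (ProNeu-like) and 1.26 (T/NK-like) in every class where it was compared except macrophage-like cells, at -0.16.

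The genes with the most similar pattern differed from member to member. Likeness was Pearson's r of log2(CPM + 10) over 36 points, 18 classes in each of 2 libraries, among 4332 genes. The points share libraries and depth, so r is a description. For Ifitm1 the 3 most alike genes were Fut7 (r = 0.67), Ier3 (r = 0.66) and Gcnt2 (r = 0.65). For Ifitm2 they were Gapdh (r = 0.88), Pgk1 (r = 0.79) and Ifitm3 (r = 0.78), and for Ifitm3 Ifitm2 (r = 0.78), Tgfbi (r = 0.75) and Hacd4 (r = 0.74). Ifitm1 thus had no close match, whereas Ifitm6 had several. For Ifitm6 they were Plaur (r = 0.92), Ly6g (r = 0.91) and Chil1 (r = 0.91), of which Ly6g is the surface marker of mouse neutrophils. Among the members, Ifitm2 and Ifitm3 were most alike (r = 0.78), Ifitm1 and Ifitm2 came next (r = 0.62), and Ifitm1 and Ifitm6 were least alike (r = 0.06).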

How the data were processed

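Marrow cells of 1 Ctrl and 1 cKO mouse library were counted per gene and cell barcode. Per the labels, the authors deposited raw UMI counts made with Cell Ranger 5.0.0 (the submitters' processing notes) on GRCm38; the annotation version is not given in the sources used here. As in the study's methods, barcodes were left out below 200 or above 9000 genes, or where mitochondrial UMIs passed 30%. Doublets were not removed. The study called doublets.

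Each cell took the class of its highest mean marker z-score (at least 0.5, and 0.2 above the next), and 19 of 21 classes had at least 50 cells. PreNeu-like and imNeu-like cells share markers, so no margin was asked between them. Their 0.2 was to the best other class, and the higher score named the cell. The gate's thresholds were set after seeing the data. UMIs were summed per class and given as CPM of all UMIs. CPM carry exact Poisson intervals, shares exact Clopper-Pearson intervals and ratios exact binomial intervals, all at 95%. The call rule was a log2 ratio of at least 1 in size at a mean of at least 50 CPM. Scripts were tested on simulated counts. Members and lists were chosen with earlier results of these data known. Genes named are the members, the other Ifitm genes, Map4k4, at most 4 listed interferon genes past the fold per class by CPM, and the 3 genes most like each member. Of 64 interferon-stimulated genes listed, 62 were in the tables, and the HSC-like call of 1 of them is not reported here. Positions came from GENCODE M21, and promoters from RefSeq, which held all 4 members. Alternatives changed the depth floor, mitochondrial ceiling, total, scaling, averaging, gate, clustering, shared barcodes and the top cell, of which the last pair was added after seeing the data. Tools were Python 3.11.15, numpy 2.4.6, scipy 1.17.1, pandas 2.3.3, scanpy 1.11.5 and leidenalg 0.10.2.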

Additional observations from a re-analysis of the deposited data

Results flagged for a closer look

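Against the direction of most classes, where the interval of Ifitm3 lay above 0 in 12 and that of Ifitm6 in 11, 5 values lay below 0. The log2 ratio of Ifitm3 was -1.37 in T/NK-like and -1.31 in erythroblast-like cells. The log2 ratio of Ifitm6 was -1.10 in erythroblast-like, -0.79 in megakaryocyte-like and -0.74 in HSC-like cells. Whether these classes differ from the others was not tested, since each library stands alone. In megakaryocyte-like cells the mean of the per-cell proportions of Ifitm6 was 365 CPM in Ctrl and 339 in cKO. The 9 imNeu markers summed to 7436 CPM in Ctrl and 5257 in cKO there, and their part was not tested. Single cells weighed in several of these values. For HSC-like Ifitm6, 1 cell gave 61 of the 175 Ctrl UMIs, as given with it. For erythroblast-like Ifitm3, 1 cell gave 7 of the 18 cKO UMIs. For megakaryocyte-like Ifitm6, 1 cell gave 49 of the 211 Ctrl UMIs and 1 cell 7 of the 33 cKO UMIs.

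Cells that matched no class also carried the genes, and they were in none of the class comparisons. In the ungated cells Ifitm1 was at 495 CPM in cKO and 135 in Ctrl, a log2 ratio of 1.88. Ifitm2 was at 972 and 421 CPM, Ifitm3 at 817 and 382 CPM, and Ifitm6 at 2678 and 648 CPM. In all 4 cases the cKO value was the higher, as it was in the neutrophil path. The largest Leiden cluster left unnamed held 617 Ctrl and 1205 cKO cells, with Ifitm1 at 98.8 and 656 CPM.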

How the results depend on the processing

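No paired analysis was possible because the groups share fewer than 2 replicate numbers, with 1 library each. No library could be left out. The log2 ratio of Ifitm1 ran over the alternatives from 1.13 to 1.58 in HSC-like, 1.64 to 1.95 in MPP-like, 2.41 to 3.12 in GMP-like, 2.40 to 3.46 in ProNeu-like and 2.08 to 2.56 in mNeu-like cells, so it stayed past the fold in these 5 classes under each alternative that gave a value. As the mean of the per-cell proportions it was 1.13 in HSC-like, 3.46 in ProNeu-like and 2.10 in mNeu-like cells. In Leiden clusters it was 1.68 in MPP-like and 2.41 in GMP-like cells. Without the shared barcodes it was 1.64 in MPP-like and 2.08 in mNeu-like cells. A total without mitochondrial, ribosomal, haemoglobin and immunoglobulin genes gave 1.95 in MPP-like cells, and in mNeu-like cells the floor of 2000 UMIs gave 2.55 and median-of-ratios scaling 2.56. The GMP-like ratio had no value with that floor, since 15 of the 64 cKO cells held at least 2000 UMIs. The HSC-like ratio had none in Leiden clusters, since no cluster took that name. Those 2 checks are therefore missing.

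Signs turned as follows. The mean of the per-cell proportions gave -0.35 for Ifitm1 in basophil/mast-like cells, 0.27 for Ifitm3 in erythroblast-like cells, and for Ifitm6 0.72 in HSC-like and 0.0051 in erythroblast-like cells. For Ifitm6 the floor of 2000 UMIs gave -0.33 in basophil/mast-like and -0.044 in MEP-like cells, the stricter gate -0.027 in basophil/mast-like cells, and Leiden clusters -0.33 in MEP-like cells. The cause was not tested. Of 72 ratios, 41 moved by more than their counting interval under the per-cell mean, and 16 under median-of-ratios scaling, with 0 turning sign there. Without the shared barcodes 20 of 52 ratios moved so, and in Leiden clusters 18 of 48.

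With only a minimum of 10 UMIs in place of the CPM limit, more low genes enter the list counts by construction. Downward, the interferon-stimulated genes past the fold were then, with the share of all genes past it under the same rule in parentheses, 4 of 53 in HSC-like (8.89%), 2 of 58 in MPP-like (9.43%), 5 of 46 in GMP-like (12.3%), 11 of 57 in ProNeu-like (5.48%), 15 of 49 in PreNeu-like (9.75%), 12 of 57 in imNeu-like (13.1%), 14 of 57 in mNeu-like (23.9%), 10 of 61 in monocyte-like (7.82%), 7 of 37 in macrophage-like (19.2%), 10 of 35 in pDC-like (19.4%), 11 of 40 in basophil/mast-like (11.6%), 3 of 16 in eosinophil-like (23.5%), 14 of 55 in MEP-like (8.95%), 4 of 41 in megakaryocyte-like (13.3%), 34 of 46 in erythroblast-like (34.2%), 21 of 55 in B-like (30.7%), 18 of 49 in T/NK-like (16.3%) and 16 of 40 in plasma cell-like cells (27.0%). Upward they were 5 in MPP-like (2.58%), 3 in GMP-like (3.26%), 3 in plasma cell-like (3.12%), 3 in macrophage-like (8.33%), 2 in megakaryocyte-like (4.18%), 1 in B-like (6.41%), 1 in pDC-like (6.39%), 1 in eosinophil-like (9.36%) and 1 in basophil/mast-like (4.04%), and 0 in the other classes. With the CPM limit in place again, median-of-ratios scaling left 0 downward in HSC-like and in plasma cell-like cells. It gave 1 downward in eosinophil-like cells and 1 upward each in B-like, erythroblast-like and megakaryocyte-like cells. With that limit and without the scaling, each of these last counts was 0.

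Cell number limits the stem and progenitor classes, with 49 HSC-like, 76 MPP-like and 64 GMP-like cells in cKO. Several other classes of cKO held fewer cells, down to 25 eosinophil-like and 25 megakaryocyte-like. The spread between animals is not measured. The floor of 2000 UMIs and Leiden clusters left 44 and 48 of the 72 ratios.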
